A study of Mus musculus with 18 samples.

Results

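Small proline-rich protein (Sprr) genes were followed across single cells, single nuclei, tissue sections and bulk RNA of the mouse urinary bladder. The set comprised 5 genes, Sprr1a, Sprr1b, Sprr2b, Sprr2f and Sprr3, of the 32747 genes listed in any deposited table. They were chosen by name, with their levels in these data known, as genes to follow in urothelial cells against other cell classes, between libraries, in sections of 2 ages and in bulk tissue against dissociated cells. Values for those 4 contrasts are therefore descriptions and carry no test. The 5 genes were tested only in 2 splits of the urothelial cells that the choice did not use, while other genes were also tested in bulk RNA and in sections. The tables list 10 further Sprr genes, which serve as comparison.

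Sprr proteins are short, rich in proline and glutamine, and serve as building blocks of the cornified envelope, a layer of cross-linked protein formed beneath the plasma membrane of stratified epithelia. Transglutaminases cross-link them to partners such as involucrin, and the genes lie side by side in the epidermal differentiation complex. The urothelium that lines the bladder is a transitional epithelium and does not cornify, and its superficial cells are known instead for plaques of uroplakins. Sprr genes are also known as stress and repair genes in epithelia, and AP-1 factors (Fos and Jun proteins) are known regulators of several of them.

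All animals were C57BL/6 mice with no treatment named. Whole-bladder cells came from 3 males at 22 months, 3 males at 3 months, 2 females with 2 males at 12 months (2 libraries, replicates 1 and 2), and 2 females with 2 males at 24 months. A nuclear preparation held 2 females and 2 males at 12 months, a detrusor (muscle layer) library 3 females at 14 months, and a detrusor-enriched bladder library 2 females and 2 males at 14 months. Each library is labelled with several animals, and the labels do not say whether they were pooled. Frozen Visium sections were labelled with 4 males each, 2 sections at 22 months and 2 at 14 months. Bulk RNA came from intact bladder (3 libraries) and dissociated bladder (3 libraries), each labelled with 3 females at 12 months. Nothing in the labels says that replicates came from separate animals, so p-values measure the spread between these libraries, which may be technical.

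The droplet tables held 5197910 to 55374101 molecules (UMIs), the sections 21976101 to 32021223 and the bulk libraries 23083752 to 68760791 counts. Urothelial-like cells, named from uroplakins, keratins and other fixed markers, numbered 1140, 1489, 2101, 739 and 1886 in the 22-month male, 3-month male, 12-month mixed-sex replicates 1 and 2 and 24-month mixed-sex libraries. The 2 male tables list another gene set (27775 against 27998 genes) and hold shallower cells than the 3 mixed-sex tables (median 1837 to 2524 against 9893 to 15042 UMIs per barcode), so sex, processing and depth cannot be told apart between them. The detrusor-only library gave no urothelial-like cluster. In the detrusor-enriched library the 1498 urothelial-like cells had a median of only 590 UMIs, so its values are given apart. Barcodes shared between droplet libraries were at most 1.003% of the smaller library.

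The promoters of the 3 members with usable signal are shown because the results below turn on how differently these genes behaved. AP-1 sites are marked because AP-1 factors are known regulators of several Sprr genes, and no link to the levels below was tested. Each is the 250 bases before the annotated start in GRCm38.p6 (RefSeq), printed on the strand of the gene. Capitals mark TGANTCA, the core of the AP-1 site, and the TATA box TATAAA. Sprr1a lies on the minus strand of chromosome 3 (chr3:92485882-92486131 for the promoter), Sprr2b on the plus strand (chr3:92316455-92316704) and Sprr2f on the plus strand (chr3:92364937-92365186).
Sprr1a: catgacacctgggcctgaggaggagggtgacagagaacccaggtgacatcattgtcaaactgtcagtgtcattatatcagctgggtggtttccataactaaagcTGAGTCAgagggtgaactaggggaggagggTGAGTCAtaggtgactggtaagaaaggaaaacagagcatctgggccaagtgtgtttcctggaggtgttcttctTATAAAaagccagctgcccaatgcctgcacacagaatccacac
Sprr2b: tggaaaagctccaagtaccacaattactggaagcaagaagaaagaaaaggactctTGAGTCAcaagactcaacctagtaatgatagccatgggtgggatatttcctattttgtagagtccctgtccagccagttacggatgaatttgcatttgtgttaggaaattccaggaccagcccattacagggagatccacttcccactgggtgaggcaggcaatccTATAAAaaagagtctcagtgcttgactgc
Sprr2f: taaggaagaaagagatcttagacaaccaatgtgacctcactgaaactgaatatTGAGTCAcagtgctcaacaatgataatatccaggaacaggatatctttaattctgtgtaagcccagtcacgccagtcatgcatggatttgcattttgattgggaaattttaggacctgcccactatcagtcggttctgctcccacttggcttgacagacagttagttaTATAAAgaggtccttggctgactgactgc

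The Sprr1a window held 2 TGAGTCA matches, 146 to 140 and 116 to 110 bases before the start. Sprr2b held 1, at 195 to 189, and Sprr2f 1, at 197 to 191, each with a TATAAA 29 to 24 bases before the start. A TGANTCA on either strand occurred in 6.75% of 32851 mouse promoter windows of the same length, at least 2 matches in 0.338%, and TATAAA in 12.4%. Sprr1b held 1 match, TGAATCA, and a TATAAA at 30 to 25. Its window (chr3:92438780-92439029) overlaps the listed gene span, which ends at 92438817, so its distances are from a start inside that span. The Sprr3 window held a TATAAA at 33 to 28 and no TGANTCA. The windows of Sprr2a1 and Sprr2a2, relatives that are compared below, were identical at 250 of 250 bases. Most letters of the Sprr2a3 window match theirs at a shifted position. Neither they nor the Sprr2a3 window held a TGANTCA or a TATAAA. The listed spans of these Sprr2a genes are longer than those of the other Sprr2 genes. That of Sprr2a1 runs from 92215835 to 92222491, and that of Sprr2b from 92316705 to 92318085. Windows before their annotated starts may therefore not compare with the others. Sprr2d, Sprr2e, Sprr2h and Sprr2i each held 1 TGAGTCA, and Sprr2k held 2 TGANTCA matches. Each of these windows also had a TATAAA at 29 to 24. These relatives gave few or no UMIs in the droplet libraries, so such matches are not particular to the members with usable signal. A match is a description of letters and not evidence of binding.

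Sprr1a was the Sprr gene with the most UMIs in the urothelial-like cells of all 5 whole-bladder cell libraries. Its level in urothelial-like cells was 5361 CPM (counts scaled to a common library total) in the 22-month male library, 5997 in the 3-month male library, 2710 and 3756 in the 12-month mixed-sex replicates and 2876 at 24 months. Both male libraries lay above all 3 mixed-sex libraries. The 3-month and 22-month libraries were thus the highest and the 12-month and 24-month libraries the lowest, an order that does not follow age. The mean was 4140 ± 1477 CPM (SD, n = 5 libraries). Urothelial nuclei gave 599.6 CPM and the shallow urothelial-like cells of the detrusor-enriched library 1537 CPM. Nearly all urothelial-like cells held the transcript: 98.3, 94.8, 99.7, 99.6 and 99.8% had at least 1 UMI. After thinning each cell to 1000 UMIs the shares were 94.0, 90.9, 84.2, 89.0 and 85.1%.

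The transcript was spread over most of these cells. The 5% of urothelial-like cells with the most Sprr1a UMIs held 16.8 to 19.1% of them in the 5 libraries. Of all Sprr1a UMIs in kept cells, 93.1, 96.5, 98.3, 99.2 and 98.0% lay in urothelial-like cells, in the same order of libraries. The share was 83.1% in nuclei and 95.6% in the detrusor-enriched library.

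Outside the urothelium Sprr1a was far lower. Mean levels ran from 543.1 ± 121.7 CPM in plasma-like cells (SD, n = 2 libraries) and 477.4 ± 445.8 in T or NK-like cells (n = 4) through 271.7 ± 136.8 in mesothelial-like cells (n = 2), 222.2 ± 92.4 in macrophage or monocyte-like cells (n = 5), 188.5 ± 77.2 in fibroblast-like cells (n = 5), 185.4 ± 18.7 in B-like cells (n = 3) and 173.6 ± 90.9 in dendritic-like cells (n = 4) to 138.7 ± 54.2 in blood endothelial-like cells (n = 3). Neighbours in that order did not differ beyond their spread over libraries, and the means rest on different sets of libraries. Plasma-like cells came from 2 mixed-sex libraries only, and fibroblast-like cells, present in all 5, stood at 98.2 and 126.8 CPM in the male and 231.4, 288.5 and 197.7 CPM in the mixed-sex libraries. By contrast, the lowest urothelial value, 2710 CPM, lay above the highest of these classes, 1094 CPM in the T or NK-like cells of the 12-month replicate 1. In the 3-month male library 22 pericyte-like cells stood at 1221 CPM, from 32 UMIs.

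Free RNA from broken cells can give such values, and uroplakins, known as urothelial genes, were measured beside Sprr1a as a gauge. Per UMI of 4 uroplakin genes, fibroblast-like cells of the 5 libraries held 0.671, 0.791, 0.450, 0.483 and 0.577 Sprr1a UMIs. Urothelial-like cells of the same libraries held 0.662, 0.712, 0.416, 0.565 and 0.575. Other classes lay near the urothelial ratio in some libraries and away from it in others. Plasma-like cells gave 0.407 in the 12-month replicate 1 and 0.629 at 24 months. T or NK-like cells gave 0.902 at 22 months, 0.731 at 3 months, 0.864 in the 12-month replicate 1 and 0.354 at 24 months, from 37, 19, 191 and 114 Sprr1a UMIs. Macrophage or monocyte-like cells gave 0.837, 0.733, 0.512, 0.721 and 0.863 in the 5 libraries, and mesothelial-like cells 0.223 at 22 months and 0.184 at 24 months. Uroplakins themselves were high in those mesothelial-like cells, at 1655 and 953.2 CPM against 146.4 and 342.9 in fibroblast-like cells. They were also high in the 12-month replicate 1 and at 24 months in plasma-like cells (1121 and 999.4 CPM) and T or NK-like cells (1265 and 1460). The 3-month pericyte-like cells stood at 1565 CPM. Whether uroplakins serve as a gauge for these classes in these libraries was not tested. How much of the signal in any class was free RNA was not tested either. In nuclei the ratios of fibroblast-like and urothelial-like cells were 0.207 and 0.212. The detrusor-enriched library differed, at 0.179 in fibroblast-like and 0.308 in urothelial-like cells. In the detrusor-only library, which gave no urothelial-like cluster, 3223 fibroblast-like cells held 17 Sprr1a UMIs in all (0.642 CPM) and 455 smooth muscle-like cells held none, which allows up to 0.679 CPM. Thinned to 1000 UMIs, 9.48 to 23.8% of fibroblast-like cells of the whole-bladder libraries had a Sprr1a UMI, and 0.0639% of those in the detrusor-only library.

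**Figure D1:**
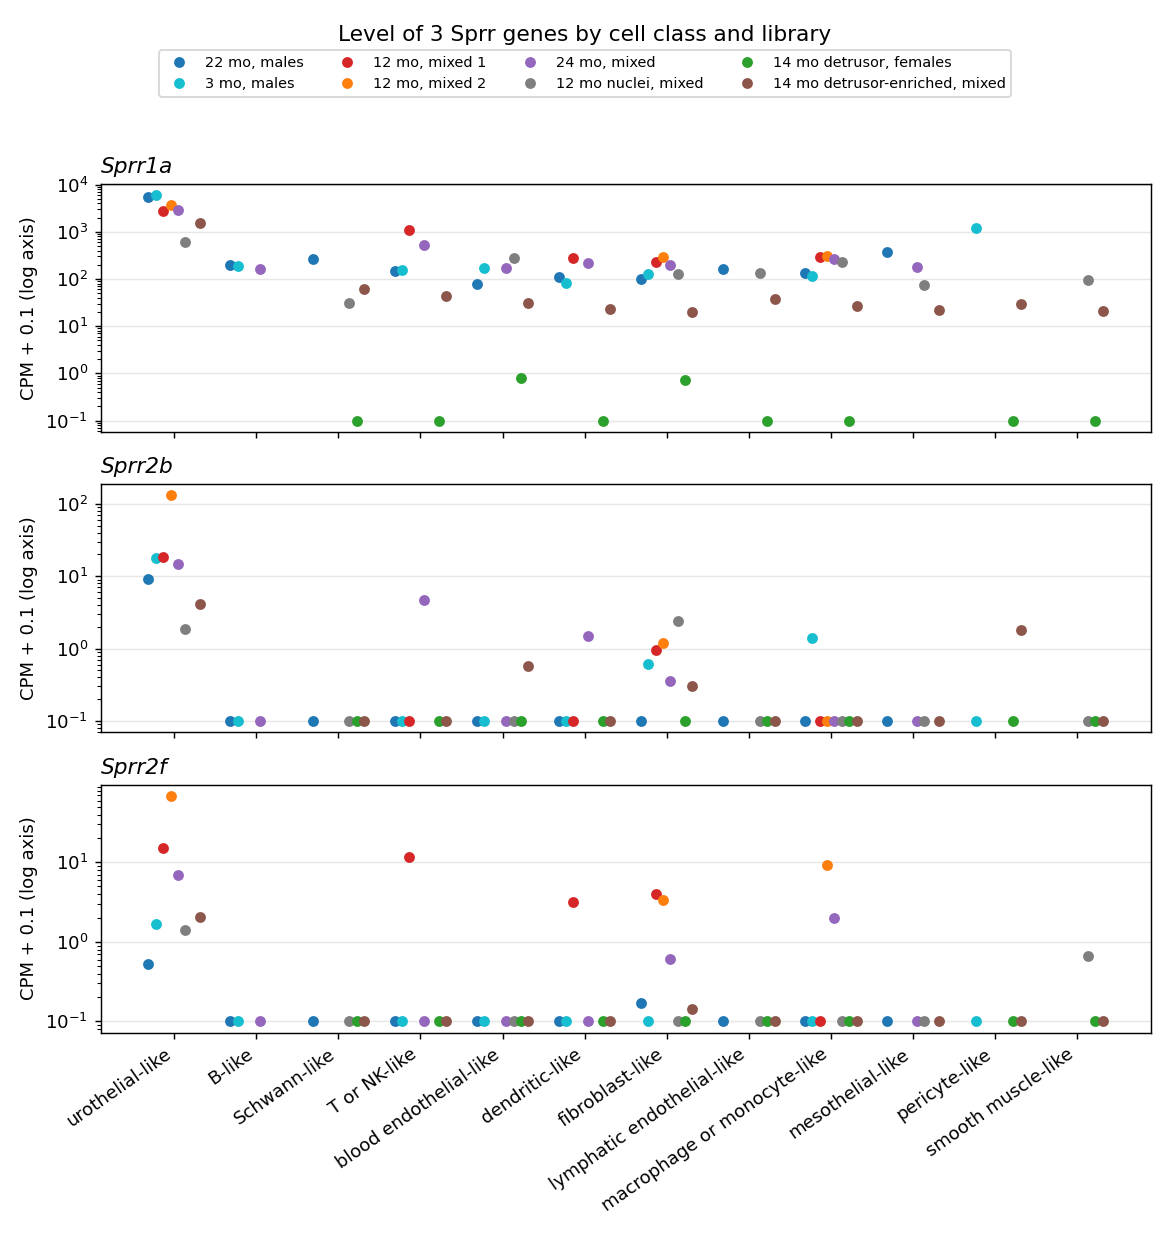
Levels of Sprr1a, Sprr2b and Sprr2f as CPM + 0.1 on a log axis, 1 point per library and cell class with at least 20 cells, for classes found in 3 or more libraries; points at 0.1 had no count. The urothelial-like points of Sprr1a sit above those of the other classes in each whole-bladder library, and the detrusor-only points (green) lie at or near 0.

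Sprr2b and Sprr2f were scarcer and far less even. Sprr2b stood at 8.997, 17.8, 18.1, 131 and 14.8 CPM in urothelial-like cells of the 22-month male, 3-month male, 12-month replicates 1 and 2 and 24-month libraries. Its mean was 38.1 ± 52.1 CPM (SD, n = 5) and was 14.9 CPM without the 12-month replicate 2. Sprr2f stood at 0.428, 1.57, 14.9, 68.8 and 6.90 CPM, from 2, 7, 457, 975 and 173 UMIs. Its mean of 18.5 ± 28.7 CPM (SD, n = 5) was 5.95 CPM without the same library. Both genes were thus highest in the 12-month replicate 2, several times above its sister library of the same age and sexes, and Sprr2f was lowest in the 2 male libraries. The other named classes held 10 Sprr2b UMIs and 25 Sprr2f UMIs in the 5 libraries together.

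Sprr2f was concentrated in few cells. In the 12-month replicate 2, 137 of 739 urothelial-like cells had a Sprr2f UMI, the 37 cells with the most held 87.0% of all Sprr2f UMIs, and 1 cell held 120. In the 12-month replicate 1, 119 of 2101 cells had one, with up to 43 UMIs in 1 cell. Sprr2b in replicate 2 was found in 318 of 739 cells and its 37 highest cells held 37.3% of UMIs. Cells with a Sprr2f UMI held somewhat more Sprr2b than their share of UMIs in both 12-month libraries but not at 24 months. In replicate 1 they held 12.97% of Sprr2b UMIs and 7.91% of all UMIs, in replicate 2 they held 32.2 and 23.8%, and at 24 months 4.31 and 4.52%. Thinned to 1000 UMIs, 0, 0.0740, 0.952, 3.65 and 0.530% of urothelial-like cells had a Sprr2f UMI, in the order of libraries given above.

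Sprr1b and Sprr3 were at or near 0. Sprr1b, a close relative of Sprr1a in envelope formation, gave 2 UMIs in the 24-month cells and none in the other 7 droplet libraries or the 4 sections. Sprr3, known from the oesophagus, gave none in the 8 droplet libraries and 4, 1, 1 and 3 UMIs in the sections. With 3 counts taken as the floor, a count of 0 in the whole-bladder libraries allows 0.0794 to 0.226 CPM.

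Among the relatives, Sprr2a3 was second to Sprr1a in UMIs, which stand for captured molecules and are not divided by length. Sprr1a made up 95.7, 97.1, 86.5, 76.5 and 88.6% of all Sprr UMIs in urothelial-like cells. Sprr2a3 stood at 222.6, 144.4, 348.4, 779.6 and 300.1 CPM, again highest in the 12-month replicate 2. Sprr2a1, Sprr2a2 and Sprr2a3 are near-identical copies, so how reads were divided among them is uncertain, and the same holds for the other Sprr2 genes.

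The genes most like Sprr1a across 36 profiles of a cell class in a whole-bladder library, by Pearson correlation of log2(CPM + 1) over 8582 genes compared, were Sptssb (0.966), Igfbp2 (0.958), Krt15 (0.948), Gsta4 (0.947) and Acaa1b (0.944). Sprr2a3 reached 0.678. Profiles of 1 library share its depth and its free RNA, so these values only describe likeness.

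The urothelial-like cells of each whole-bladder library were next divided into tertiles, groups of equal size, by the share of their UMIs in 5 uroplakin genes, which were then left out of the test. Uroplakins are at their highest in superficial cells, so the split orders cells from the basal towards the superficial end. Krt5, a basal keratin, stood at 975.5 CPM in the low and 731.4 in the high tertile at 22 months and was lower in the high tertile of each library. Krt20, a superficial keratin, stood at 9.30 and 26.8 CPM at 22 months and was higher in the high tertile of each. High-tertile cells were also deeper in all 5 libraries, for example a median of 4689 against 3603 UMIs at 22 months, and had a lower share of dissociation-response genes.

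Sprr2b rose steeply with the uroplakin share. It went from 2.86 through 3.78 to 18.2 CPM in the low, middle and high tertile at 22 months, from 6.48 through 11.8 to 30.2 at 3 months and from 2.22 through 11.2 to 35.2 in the 12-month replicate 1. In the 12-month replicate 2 it went from 26.7 through 103.4 to 214.3 CPM, and at 24 months from 1.96 through 8.83 to 29.5. Every library rose at both steps, but the 22-month library held only 42 Sprr2b UMIs over all tertiles, so its first step rests on few molecules. The fitted high-minus-low difference was 3.32 on the log2 scale (SE 0.15, edgeR quasi-likelihood adjusted p = 7.703e-12, higher in 5 of 5 libraries). It was called under all 12 alternatives, at 1.96 to 3.96, and stood at 1.96 with cells thinned to 1000 UMIs.

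Sprr2f also rose, on fewer molecules. Its levels in the low, middle and high tertile were 6.99, 12.8 and 22.0 CPM in the 12-month replicate 1, 17.2, 75.6 and 93.8 in replicate 2 and 2.61, 8.95 and 8.24 at 24 months. The male libraries held 2 and 7 Sprr2f UMIs over all tertiles and show no pattern. The fitted difference was 2.01 (SE 0.18, edgeR adjusted p = 8.528e-08, higher in 4 of 5 libraries). With cells thinned to 1000 UMIs it was 0.09 (edgeR adjusted p = 0.9536), the only one of 12 alternatives that lost the call.

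Sprr1a differed little. Its levels from low to high were 5297, 5285 and 5259 CPM at 22 months, 5311, 6245 and 6032 at 3 months, 2517, 2598 and 2832 in the 12-month replicate 1, 3567, 3690 and 3741 in replicate 2 and 2802, 2773 and 2895 at 24 months. The high tertile was above the low tertile in 4 of 5 libraries in CPM. Relative to the genes other than the uroplakins the difference was 0.16 on the log2 scale (SE 0.06, edgeR adjusted p = 0.04153). That call did not hold: 6 of 12 alternatives lost it, with adjusted p from edgeR or DESeq2 of up to 0.2386, among them leaving out the 12-month replicate 1 (0.1225), the 12-month replicate 2 (0.09554) or the 24-month library (0.0641).

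**Figure D2:**
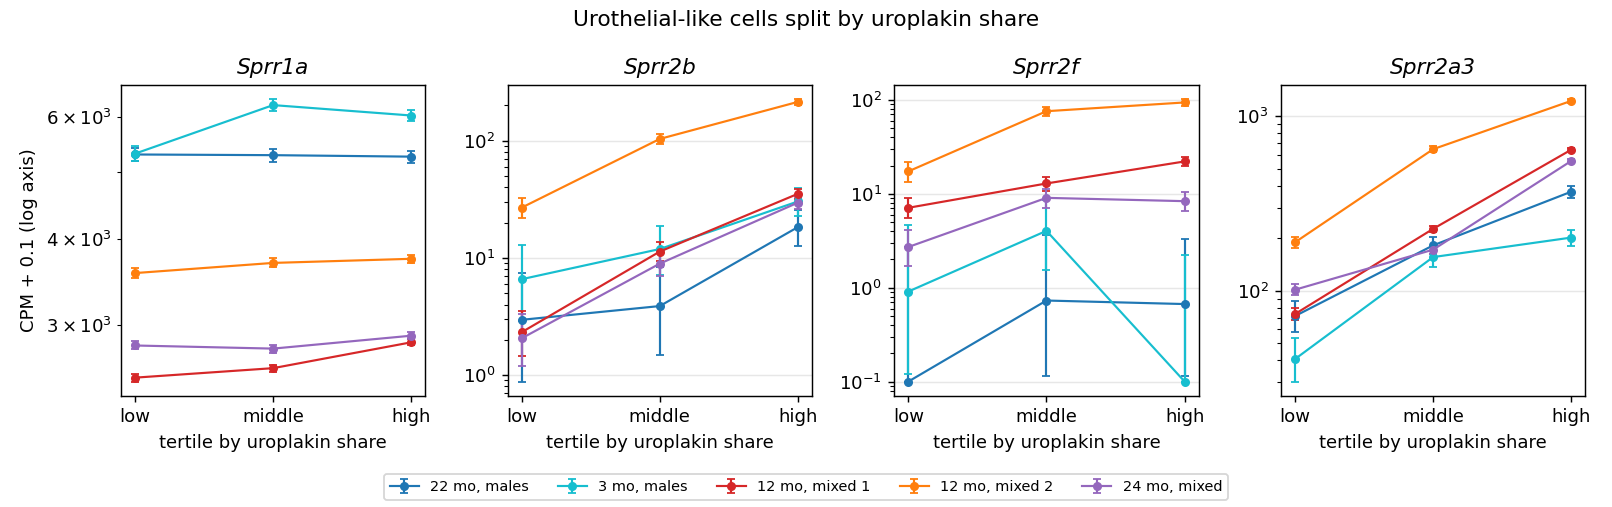
Levels (CPM + 0.1, log axis) of Sprr1a, Sprr2b, Sprr2f and Sprr2a3 in the low, middle and high tertile of urothelial-like cells by uroplakin share, 1 line per whole-bladder library; bars are 95% Poisson intervals for counting error. Sprr2b and Sprr2a3 climb in all 5 libraries, while Sprr1a stays within about the same level in each.

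All 3 members that could be tested were called higher, as were 13.9% of the 11837 genes tested (29.2% called in either direction), with a median of -0.02 over all genes. The 3 relatives that could be tested rose as well. Sprr2a3 went from 71.5 to 370.3 CPM between the low and high tertile at 22 months, from 40.5 to 201.9 at 3 months, from 73.5 to 645.0 and from 189.5 to 1229 in the 12-month replicates and from 101.3 to 556.1 at 24 months. Its difference was 2.71 (SE 0.09, edgeR adjusted p = 4.028e-11), that of Sprr2a1 2.97 and that of Sprr2a2 3.43, with the split of reads among the 3 uncertain. With cells thinned to 1000 UMIs the 3 remained called, at 1.95, 2.34 and 1.83 on the log2 scale. Thinned Sprr2a3 was higher in the middle than in the low tertile of all 5 libraries, but from the middle to the high tertile it went from 246 to 246 CPM at 22 months and from 188.1 to 146 at 3 months. When cells were ordered by the basal genes Krt5, Krt14, Krt15 and Trp63 instead, Sprr2a3 gave 1.604 (edgeR adjusted p = 0.0526) and Sprr2b 2.31 (edgeR adjusted p = 0.0001026).

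Of 13 tested partner genes of the cornified envelope, 2 rose and 2 fell, about the share of all genes in this split (13.9 and 15.3%). S100a6, a calcium-binding protein, rose by 0.63 and Evpl (envoplakin) by 0.54, while S100a10 changed by -1.77 and Pkp3, a desmosome protein, by -0.60. With cells thinned to 1000 UMIs the calls of Evpl (edgeR adjusted p = 0.1303) and Pkp3 (0.4712) were lost. Involucrin (Ivl), the classic partner of Sprr proteins, gave 0.70 (SE 0.22, edgeR adjusted p = 0.08222) and was called under 5 of 12 alternatives, among them leaving out the 12-month replicate 2 (edgeR adjusted p = 0.008702) or the 22-month library (0.03285). With cells ordered by basal genes it was 0.03 (edgeR adjusted p = 0.7374). Of the transglutaminases only Tgm2 could be tested, at -0.37 (edgeR adjusted p = 0.02163), a call lost under 5 alternatives, including leaving out the 12-month replicate 1 (edgeR adjusted p = 0.1186), the 12-month replicate 2 (0.06658) or the 24-month library (0.2187).

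Keratins of squamous and wounded epithelium mostly went the other way from the Sprr2 genes. Of 6 tested, 4 fell: Krt4 by -0.97, Krt13 by -1.96, Krt6a by -2.76 and Krt14, a basal keratin, by -3.96 on the log2 scale. Krt1 rose by 0.64, a call lost with cells thinned to 1000 UMIs (edgeR adjusted p = 0.07936) or ordered by basal genes (0.06591). Of 19 epithelial regulators 3 rose and 10 fell, against 13.9 and 15.3% of all genes. The 3 that rose were Elf5 (1.76), Grhl3 (0.67) and Zfp750 (0.77), factors known from epithelial differentiation, and those that fell included Klf4 (-1.63), Klf5 (-0.58), Klf6 (-0.58) and Nfe2l2 (-0.80). Elf5 lost its call with cells thinned to 1000 UMIs (edgeR adjusted p = 0.1004). All 8 AP-1 genes fell, among them Fos (-0.55), Fosb (-0.90), Jund (-0.89), Atf3 (-0.72), Junb (-0.32) and Jun (-0.26). Jun lost its call without the 22-month (edgeR adjusted p = 0.08045), 3-month (0.1643) or 24-month library (0.1078), and Atf3 without the 3-month library (0.05904). Evpl, Pkp3, Elf5, Grhl3 and Zfp750 were picked out after their values were seen.

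A second split ordered the same cells by the share of UMIs in 20 genes of the dissociation response, such as Fos, Jun and Hspa1a, again left out of the test. Of the 3 measured members only Sprr2f was called. Sprr1a was lower in the high than in the low tertile of the mixed-sex libraries, at 2317 against 2753 CPM in the 12-month replicate 1, 2931 against 4426 in replicate 2 and 2353 against 3080 at 24 months. In the male libraries it was higher, at 5183 against 4868 CPM at 22 months and 6499 against 5256 at 3 months. Over all 5 libraries the difference was -0.16 on the log2 scale (SE 0.19, edgeR adjusted p = 0.7329). An interaction term, added because these opposite directions had been seen and so no independent test of them, put the male minus mixed-sex difference at 0.71 (SE 0.12, edgeR adjusted p = 0.02942, with 1.02% of 11583 genes called). The tables of the male and mixed-sex libraries differ as described above, and the cause was not tested.

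Sprr2f fell with the response share. In the low, middle and high tertile it stood at 18.2, 20.02 and 5.42 CPM in the 12-month replicate 1, 120.4, 35.4 and 44.9 in replicate 2 and 7.58, 7.87 and 4.73 at 24 months. The fitted difference was -1.41 (SE 0.16, edgeR adjusted p = 0.0001562, lower in 5 of 5 libraries, with 2 and 7 UMIs in the male ones). It was -0.28 with cells thinned to 1000 UMIs (edgeR adjusted p = 0.8883), the only one of 11 alternatives that lost the call. Sprr2b gave -0.87 (SE 0.37, edgeR adjusted p = 0.3176). Uroplakin shares moved with this split: the median uroplakin share of the high tertile was below that of the low tertile in all 5 libraries, for example 0.293 against 0.506% of UMIs at 24 months. Their part in the Sprr2f difference was not tested.

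**Figure D3:**
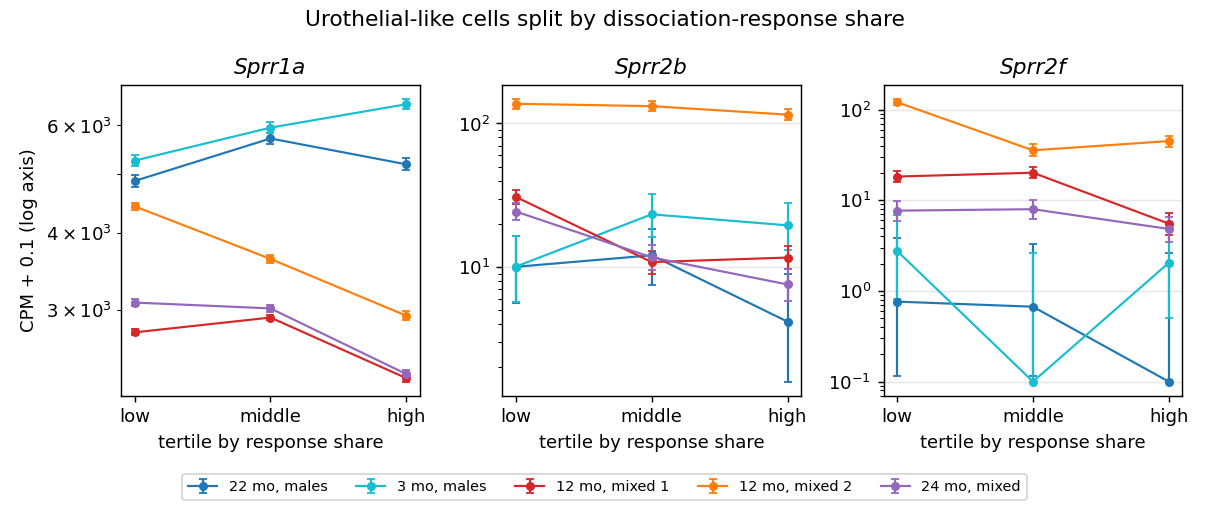
Levels (CPM + 0.1, log axis) of Sprr1a, Sprr2b and Sprr2f in the low, middle and high tertile of urothelial-like cells by dissociation-response share, 1 line per whole-bladder library, with 95% Poisson intervals. Sprr1a ends lower in the 3 mixed-sex libraries and higher in the 2 male ones.

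Of the 3 testable members 1 was called, against 3.72% of the 11583 genes tested (1.87% higher, 1.85% lower), with a median of 0.00 over all genes. None of the 3 relatives was called. Sprr2a1 gave -0.82 (edgeR adjusted p = 0.06702) and Sprr2a2 -0.80 (0.07531), each called under 4 of 11 alternatives. These included leaving out the 12-month replicate 2 (edgeR adjusted p = 0.0002489 and 0.01561) and, for Sprr2a2, the 3-month library (0.003887). Sprr2a3 gave -0.65 (edgeR adjusted p = 0.3936). It was called under 1 of 11 alternatives, with cells thinned to 1000 UMIs (-0.41, edgeR adjusted p = 0.02579). Of 13 envelope genes none rose and 2 fell, S100a6 by -0.36 and Sbsn (suprabasin) by -0.56. No keratin of the 6 tested was called. Of 19 regulators Nfe2l2, a factor of the oxidative stress response, rose by 0.39 (edgeR adjusted p = 0.002973), Cebpb by 1.03 and Ehf by 0.28, and Grhl1 fell by 0.51. Fosl2, 1 of the 2 AP-1 genes not used for the split, rose by 0.73 (edgeR adjusted p = 6.622e-05). Upk3b was the 1 of 5 uroplakins that was called, at -0.40, a call lost with cells thinned to 1000 UMIs (edgeR adjusted p = 0.3461). Sbsn, Cebpb, Ehf, Grhl1 and Upk3b were picked out after their values were seen, and the first 4 calls each fail when 1 library is left out. Without the 12-month replicate 1 the edgeR adjusted p was 0.1571 for Sbsn, 0.2166 for Cebpb, 0.2755 for Ehf and 0.08364 for Grhl1, and without the 24-month library 0.2174, 0.1488, 0.1244 and 0.2412. Sbsn and Grhl1 also lost their calls without the 12-month replicate 2 (0.08779 and 0.06325), and Ehf and Grhl1 without the 22-month library (0.07142 and 0.05085).

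In bulk RNA, intact bladder was set against dissociated bladder. Dissociated libraries held little smooth muscle RNA. Summed CPM of 10 smooth muscle markers were 41031 to 42783 in intact and 2221 to 3346 in dissociated libraries, while 10 fibroblast markers went from 13790 to 16798 up to 25088 to 36631. The 15 urothelial markers summed to 7563 to 8648 and 5424 to 8070 CPM, highest among the dissociated libraries in replicate 3. In bulk RNA fewer cells of a type and less RNA per cell cannot be told apart, and the part of these shifts in any gene below was not tested.

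Sprr1a stood at 876.8, 686.1 and 850.6 CPM in intact bladder and at 708.8, 777.3 and 1398 in dissociated bladder. The groups overlapped, and the high value belonged to dissociated replicate 3. Means were 804.5 ± 103.3 and 961.5 ± 379.8 CPM (SD, n = 3 each), a log2 difference of 0.38 (SE 0.27) that became -0.01 without that library. Sprr2f gave 0.712, 0.0598 and 0.355 CPM in intact bladder, from 16, 4 and 9 counts, and 2.69, 4.66 and 6.20 in dissociated bladder, from 74, 123 and 147 counts. Here the groups did not overlap, which was not counted over all genes. The log2 difference was 3.95 (SE 0.72, and 3.19 to 4.88 over 11 alternatives). In the same comparison 59.3% of the 16525 genes tested were called, 28.0% higher and 31.3% lower. Sprr2b gave 4, 9 and 4 counts in intact and 1, 1 and 0 in dissociated bladder, Sprr3 8, 1 and 0 against 1, 0 and 2, and Sprr1b a single count, so 2 of the 5 members passed the filter on low counts.

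The 3 relatives that could be tested, of 10 listed, fell. Sprr2a3 went from 216.5, 240.7 and 233.8 CPM in intact to 41.4, 40.9 and 71.8 in dissociated bladder, a difference of -2.04 (SE 0.23, edgeR adjusted p = 0.0002317). Sprr2a1 changed by -1.77 and Sprr2a2 by -1.63, and all 3 were called under each of 11 alternatives. Sprr2h, a relative picked out after its values were seen, had no count in intact bladder and 9, 7 and 7 counts in dissociated bladder, too few for the filter; without a filter it was called higher (edgeR adjusted p = 0.001851).

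**Figure D4:**
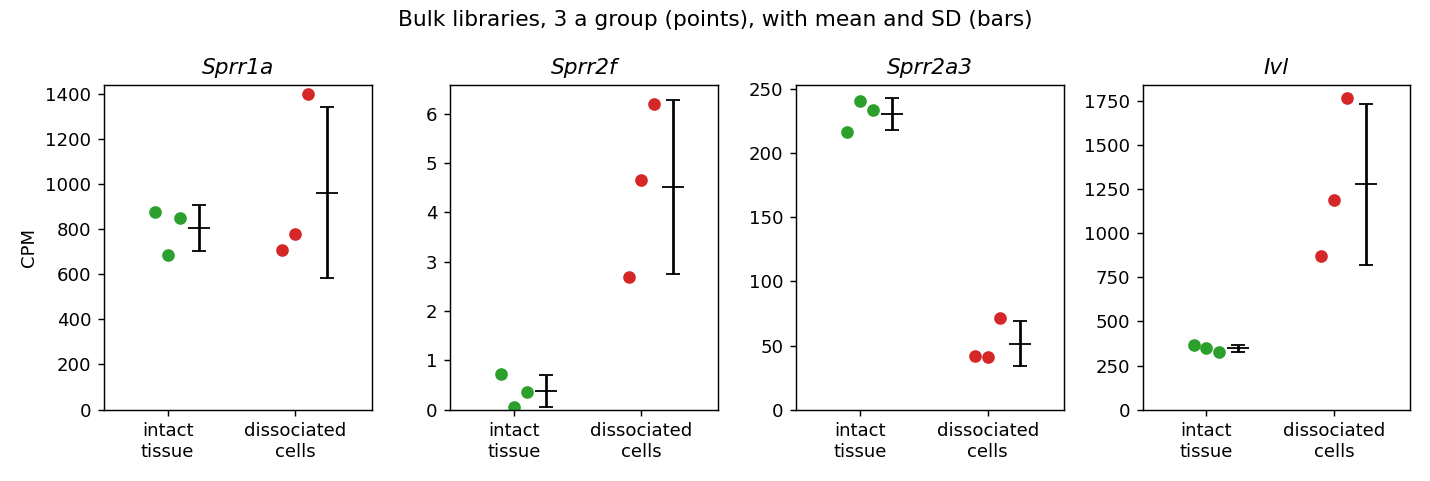
CPM of Sprr1a, Sprr2f, Sprr2a3 and involucrin (Ivl) in 3 intact (green) and 3 dissociated (red) bulk libraries, with mean and SD beside the points. Sprr1a overlaps between the groups, Sprr2f and Ivl lie higher after dissociation, and Sprr2a3 lies lower.

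Envelope partners mostly rose in dissociated bladder: 11 of 18 tested were called higher and 2 lower, against 28.0 and 31.3% of all genes, with a list median of 0.62 against -0.03 over all genes. Ivl went from 368.0, 347.7 and 327.2 to 870.0, 1191 and 1769 CPM (2.00, SE 0.25, edgeR adjusted p = 0.0003926). Anxa1 (annexin) rose by 1.40, Dsp (desmoplakin) by 0.99, S100a11 by 0.60 and Ppl (periplakin) by 0.41. The Ppl call was lost without intact replicate 1 (edgeR adjusted p = 0.1173) or 2 (0.1441) and without dissociated replicate 1 (0.06166) or 3 (0.1114). Evpl changed by -0.77 and Rptn (repetin) by -3.10, both picked out after their values were seen.

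Of 7 transglutaminases 3 rose and 1 fell, a share called that is about that of all genes (59.3%). Tgm1, the membrane-bound enzyme of envelope assembly, went from 1.74, 2.00 and 2.45 to 8.15, 7.42 and 10.96 CPM (2.22, edgeR adjusted p = 0.0001231), Tgm5 rose by 1.06 and F13a1, a clotting factor subunit, by 0.65. F13a1 lost its call without intact replicate 2 (edgeR adjusted p = 0.05314) or 3 (0.06431) or dissociated replicate 1 (0.05135). Tgm3 fell from 3.96, 5.44 and 5.88 to 0.291, 0.114 and 0.0422 CPM (-4.91, edgeR adjusted p = 8.298e-05). Of 6 keratins of wounded and squamous epithelium 3 rose and 1 fell: Krt6a rose from 1, 0 and 2 counts to 252, 449 and 492 counts, Krt13 by 6.17 and Krt14 by 2.44 on the log2 scale, while Krt1 was called at -0.78. The Krt1 call was lost without any 1 of the intact libraries (edgeR adjusted p = 0.1351, 0.06452 and 0.08715) and without dissociated replicate 1 (0.1363) or 2 (0.1225). Summed CPM of 8 keratinocyte markers, a check for skin in the sample, were 27.3 to 34.2 in intact and 40.7 to 50.9 in dissociated libraries, with 2 or 3 of the 8 at 0.

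Of 19 regulators 11 rose and 5 fell, against 28.0 and 31.3% of all genes, with a list median of 0.75. Klf4, a barrier factor, went from 67.2, 63.7 and 92.8 to 1219, 1142 and 1255 CPM (4.14, edgeR adjusted p = 2.182e-06). Klf6 rose by 2.52, Nfe2l2 by 0.83 and Grhl3 by 0.75, and Ehf (-0.66) and Trp63 (-0.43) were called lower. Trp63 lost its call without intact replicate 1 (edgeR adjusted p = 0.1313) or 2 (0.09161) and without dissociated replicate 1 (0.1363) or 2 (0.1381). All 8 AP-1 genes were called higher, as were 28.0% of all genes, with Fosb at 9.47, Atf3 at 7.61, Fos at 7.02, Junb at 4.77, Jun at 4.40 and Fosl2 at 2.16 on the log2 scale. All 5 uroplakins were called lower, as were 31.3% of all genes, from Upk3b (-0.82) and Upk3a (-0.95) to Upk1a (-0.998), Upk1b (-1.29) and Upk2 (-1.81).

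In the sections, Sprr1a followed the urothelium-rich spots. A Visium spot covers a small area that can hold several cells, and spots of each section were ranked by the share of their UMIs in urothelial markers. The 20% highest spots held 67.1, 57.6, 69.9 and 75.3% of Sprr1a UMIs in 22-month replicates 1 and 2 and 14-month replicates 1 and 2, and 42.9, 34.9, 43.5 and 44.5% of all UMIs. As CPM this was 5909, 6225, 4752 and 5554 in those spots against 2182, 2458, 1577 and 1461 in the rest. Sprr2b stood at 101.2, 117.7, 141.9 and 92.3 CPM in urothelium-rich spots and 30.2, 33.5, 53.2 and 20.6 elsewhere. Sprr2f stood at 1.66, 1.05, 9.36 and 5.66 against 0.454, 0.702, 2.01 and 1.54 CPM. Each of the 3 genes was higher in the urothelium-rich spots of all 4 sections, and for Sprr2f in 22-month replicate 2 that rests on 8 of 18 UMIs.

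**Figure D5:**
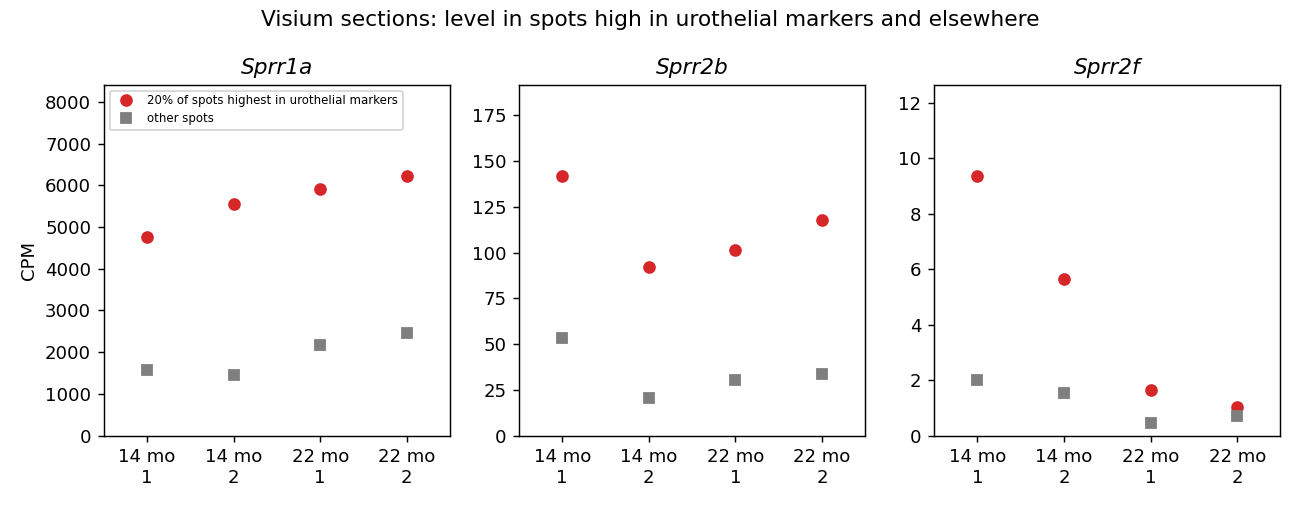
CPM of Sprr1a, Sprr2b and Sprr2f in the 20% of spots with the highest urothelial marker share (red circles) and in the other spots (grey squares) of 4 Visium sections. Red lies above grey in every section, and Sprr2f is higher in the 2 sections of 14 months.

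Summed over whole sections, Sprr1a was 3781 and 3772 CPM at 22 months and 2960 and 3280 at 14 months, a log2 difference of 0.34 (SE 0.13). Sprr2f was 0.971 and 0.822 CPM at 22 months, from 30 and 18 UMIs, and 5.21 and 3.37 at 14 months, from 110 and 75 UMIs, a difference of -2.19 (SE 0.35, and -1.815 without 14-month replicate 1). For both genes the 2 ages did not overlap, but how often this happens over all genes with 2 sections an age was not counted. Sprr2b overlapped, at 60.7 and 62.9 against 91.8 and 52.5 CPM (-0.16, SE 0.31, and 0.32 without 14-month replicate 1). The edgeR test called 0% of the 14995 genes between the ages, although 2488 genes had an unadjusted p below 0.05. DESeq2 called 426 genes.

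No relative or partner was called by edgeR either. Sprr2a3 was 629.4 and 631.4 against 497.3 and 514.8 CPM (0.38, edgeR adjusted p = 0.1773; DESeq2 adjusted p = 0.01422), and Ivl 273.5 and 275.4 against 602.2 and 473.2 CPM (-0.91, edgeR adjusted p = 0.1019; DESeq2 adjusted p = 3.221e-06). Without a filter on low counts edgeR called Ivl (edgeR adjusted p = 0.0136). Sprr2a1 differed by -0.12 and Sprr2a2 by 0.10, and both overlapped between ages. The 17 envelope genes tested had a median of 0.05, against 0.00 over all genes, and S100a11, at 801.1 and 777.3 against 690.1 and 706.1 CPM, lay on the other side from Ivl. The uroplakin Upk1a was 2685 and 2970 against 2200 and 1608 CPM, and Upk1b 1352 and 1362 against 1019 and 899.9. None of the 8 AP-1 genes was called by edgeR, and all 8 were highest in 14-month replicate 1. Atf3 stood at 3.24 and 1.87 CPM at 22 months against 211.6 and 4.45 at 14 months, Fosb at 1.75 and 1.37 against 192 and 6.11, and Jund, whose ages overlapped, at 174.1 and 140.9 against 329 and 136.6. Fosb was picked out after its values were seen. The ages did not overlap for the AP-1 genes other than Jund, with the share over all genes again not counted. Fosl2 stood at 133.1 and 113.6 against 245 and 171.5 CPM. Fos stood at 33.7 and 10.7 against 391.2 and 177.1 CPM, Jun at 46.7 and 29.4 against 191.1 and 121.2, and Junb at 194.3 and 170.6 against 635.3 and 414.2. DESeq2 called 6 of the 8, all but Atf3 and Jund. Without 14-month replicate 2 the log2 difference was -1.759 for Junb, -6.305 for Atf3 and -6.886 for Fosb. For Fosl1, also picked out after its values were seen, it was -7.046. That fit has 1 section at 14 months, so its spread comes from the 22-month pair alone. Without 14-month replicate 1 Jund was at 0.29, against -0.51 with all sections. Urothelial markers summed to 16056 and 16855 CPM at 22 months and 15138 and 13781 at 14 months. With 2 sections an age, section handling and age cannot be told apart.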

How the data were processed

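Whole-number counts were deposited by the authors: UMIs per gene and barcode for droplet libraries and sections, and reads per gene for bulk RNA. The submitters' processing notes name bcl2fastq, Cell Ranger, Space Ranger, Subread, featureCounts and mm10, without versions. The members and gene lists were chosen with earlier results of these data known.

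Kept barcodes had 500 or more UMIs, of which mitochondrial genes took no more than 20% (the male tables list mitochondrial genes at 0), simulated-doublet neighbours were removed, and cells were clustered per library (2000 variable genes, 30 components, Leiden resolution 1). Clusters with at least 3 passing markers were called "-like", by fixed markers; the scoring details were settled after clusters were seen. CPM exclude mitochondrial genes in class, tertile and spot sums. Class CPM are scaled to the 26344 genes shared by the 12 droplet and section tables. Tertile CPM are scaled to the 27464 genes shared by the 5 whole-bladder tables. Class and tertile values therefore do not compare directly, and class values come out somewhat higher. Counts were summed per library, tertile or section. Deposited section barcodes were taken as spots over tissue.

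Tests used edgeR 4.0.16 (glmQLFit robust, TMM, filterByExpr) in R 4.3.3, two-sided, with Benjamini-Hochberg adjustment over all genes tested and a threshold of 0.05; library was a term for the tertiles. Bulk and sections had no covariate. DESeq2 1.42.0 was an alternative. Intervals (95%, exact Poisson or Clopper-Pearson) and floors of 3 counts cover counting error only. Counts were simulated with 200 changed genes, as many up as down, and no other difference between groups. On these counts the bulk test found 73% of 2-fold and 92% of 4-fold changes and the section test 69 and 91%. The uroplakin split found 83 and 100%, and the response split 82 and 92%. False calls were 6.25, 18.4, 8.5 and 8.42% of all calls, in the same order of tests. In the real data 59.3% of bulk genes and 0% of section genes were called, so these rates need not carry over. Named list genes were at most 6 per list and comparison, by mean CPM, unless said otherwise. Replicate bulk libraries and sections differed by more than sampling noise. Alternatives changed normalization, filters, thresholds, cell sets, tool or left out 1 library.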

Additional observations from a re-analysis of the deposited data

Results flagged for a closer look

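In a group of 5 whole-bladder libraries, the 12-month mixed-sex replicate 2 stood far above the others for 2 genes in urothelial-like cells. Sprr2b was 131 CPM there, and the gap to the next library was 0.926 of the whole range. Sprr2f was 68.8 CPM, with a gap of 0.788 of the range. The rule for flagging was a gap above 0.71 of the range, and 12 sets of 5 libraries were looked at. The sets share the same libraries, so no chance rate is given. These gaps are a description and not a test, since the genes were chosen with these levels known. This library held 739 urothelial-like cells, the fewest of the 5, at the highest median depth (17166 UMIs).

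Between the low and high tertile by dissociation-response share, Sprr1a in urothelial-like cells moved by a mean of 0.198 on the log2(CPM + 1) scale in the 2 male libraries and by -0.410 in the 3 mixed-sex libraries. The difference itself was tested as an interaction term added after the opposite directions were seen, so it is no independent test of them (edgeR adjusted p = 0.02942, 2 against 3 libraries).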

How the results depend on the processing

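Counts of calls moved with the tool, the filter, thinning and the libraries used. Between sections, where edgeR called 0 genes, DESeq2 called 426, no filter on low counts 287, and leaving out 1 section gave 0 to 300 (300 without 22-month replicate 1). The uroplakin split called 3457 genes; DESeq2 called 2165 and thinning to 1000 UMIs 694, with 2058 to 3928 when 1 library was left out (2058 without the 24-month library, 2102 without 12-month replicate 1). The response split called 431; DESeq2 called 207, no filter 707 and thinning 108, with 84 to 679 when 1 library was left out (84 without 12-month replicate 1, 86 without the 24-month, 231 without the 22-month and 679 without the 3-month library). Its share of calls in the higher direction was 50.4%, 60.4% with DESeq2 and 68.5% after thinning. Bulk calls stayed between 8126 and 10119, but scaling by library size alone moved the share of higher calls from 47.2 to 37.8% and the median of all genes from -0.03 to -0.15. With the 10% highest spots, mean shares were 48.6% for Sprr1a, 52.5% for Sprr2b and 48.0% for Sprr2f; the set holds fewer spots. For 99 single-gene results, 937 of 1043 alternative values counted as the same. For tested genes this means that direction and side were kept. For values without a test it means a move of less than 1 SD between replicates, whatever the sign. Of the others, 67 lost a call, 29 gained one, and 5 values without a test moved by more than 1 SD. No called value among these changed sign. In sections, 5 values that had not been called did when 1 section was left out: Sprr2a1 ran from -0.291 to 0.076, Sprr2a2 from -0.142 to 0.379 and Jund from -1.023 to 0.288. Signs also changed for 2 values without a test, Sprr1a in bulk (-0.01 without dissociated replicate 3) and Sprr2b in sections (0.32 without 14-month replicate 1). Where a call was lost the cause was not tested.

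With the bulk replicate number as a block, 10119 genes were called. With group means taken off, same-numbered libraries correlated at 0.202, 0.344 and -0.070. Differently numbered ones ran from -0.437 to 0.277. With 3 libraries a group these values cannot show whether libraries were paired. Few counts limit Sprr1b, Sprr3, and Sprr2f in the male libraries.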

Other observations

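Sections and bulk libraries gave unlike proportions within the Sprr2 genes. They differ in platform, but also in labelled sex and age: males at 14 or 22 months against females at 12 months. In the 4 sections Sprr2b had 1874, 1376, 1938 and 1169 UMIs beside 19439, 13821, 10496 and 11465 of Sprr2a3. In intact bulk bladder Sprr2b had 4, 9 and 4 counts beside 4867, 16098 and 5923 of Sprr2a3. How reads of the Sprr2 genes were divided is uncertain in each table, and the cause was not tested.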
